A study of Mus musculus with 9 samples.

Results

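The *Hoxc* cluster is a row of 9 genes on mouse chromosome 15, *Hoxc13*, *Hoxc12*, *Hoxc11*, *Hoxc10*, *Hoxc9*, *Hoxc8*, *Hoxc6*, *Hoxc5* and *Hoxc4*, all transcribed from the plus strand and listed here in that order. Its CpGs were chosen by position alone, from 10 kb before the start of *Hoxc13* to 10 kb after the last annotated end of *Hoxc4*, which is chr15:102741534-102877274 of the mm9 build, a stretch of 135741 bp. Of 2718 CpGs of the reference in this stretch, 2607 had at least 3 reads in every genotype and were used, out of 13328402 such CpGs in the whole series. The 9 genes are among 14278 protein-coding genes of the chromosomes compared.

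*Hox* genes encode homeodomain transcription factors that give cells their position along the body axis, and the order of the genes on the chromosome follows the order in which they act. In embryonic stem cells (ESCs) the clusters are known to be silent and bound by Polycomb proteins, and their CpG-rich stretches lie in broad regions with little DNA methylation. Such under-methylated regions are called UMRs, and long ones are called canyons. DNMT3A and DNMT3B are the *de novo* DNA methyltransferases that place methyl groups on CpGs that carry none.

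Whole genome bisulfite sequencing (WGBS) was done on J1 ESCs, a mouse line of strain 129S4/SvJae, that were wild type (WT), *Dnmt3a*-/- (*Dnmt3a* KO) or *Dnmt3b*-/- (*Dnmt3b* KO), to compare the parts of the 2 enzymes in CpG methylation. All cells were grown on gelatin in serum with LIF, a factor that holds ESCs undifferentiated, and whether a genotype came from 1 clone or several is not stated in the labels. Each genotype had 3 libraries labelled as biological replicates, 9 in all, which the authors merged into 1 table per genotype. Each value below is therefore 1 pooled value per genotype, the intervals cover the counting of reads only, and no test across replicates was possible.

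The methylation level of a region is the percentage of methylated reads among all reads over its CpGs, with a 95% Wilson interval, and differences between genotypes are in percentage points with a 95% Newcombe interval. A read that covers several CpGs is counted at each of them, so these intervals may be too narrow. The mean depth over the cluster was 20.4 reads per CpG in WT, 19.5 in *Dnmt3a* KO cells and 19.9 in *Dnmt3b* KO cells, below the genome's mean of 32.7 to 36.2 in the 3 genotypes. Within *Dnmt3a* the *Dnmt3a* KO table had no read over 12 consecutive CpGs that WT covered 31.4 times on average, and within *Dnmt3b* the *Dnmt3b* KO table had none over 30 consecutive CpGs that WT covered 31.5 times, each in the gene that its label names as lost.

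Over the whole cluster, 34.1% of reads were methylated in WT (95% interval 33.7 to 34.6), 12.5% in *Dnmt3a* KO cells (12.2 to 12.8) and 25.1% in *Dnmt3b* KO cells (24.7 to 25.4). The level thus fell by 21.6 points in *Dnmt3a* KO cells (interval -22.1 to -21.1) and by 9.08 points in *Dnmt3b* KO cells (-9.63 to -8.53). The genome's mean CpG ratio, not weighted by reads, was 82.4% in WT, 50.3% in *Dnmt3a* KO cells and 75.5% in *Dnmt3b* KO cells. By this measure the cluster had 30.8%, 11.9% and 24.0%, so it was far less methylated than the average CpG in every genotype. The low level lay around the starts of the genes. Within 1 kb of a transcription start site (TSS) the 688 CpGs had 8.09% methylated reads in WT, 3.14% in *Dnmt3a* KO cells and 5.73% in *Dnmt3b* KO cells. The 1919 CpGs elsewhere had 42.8%, 15.4% and 31.7% in the same order.

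Exons and introns differed as well. The exons of the 9 genes had 9.80% methylated reads in WT, 3.78% in *Dnmt3a* KO cells and 5.43% in *Dnmt3b* KO cells, and the introns had 35.3%, 13.9% and 26.4%. The sequence between the genes had 42.3%, 14.2% and 31.9%. The 10 kb before *Hoxc13* had 63.4%, 21.8% and 52.8%, and the 10438 bp after the longest isoform of *Hoxc4*, the more methylated margin, had 78.2%, 34.3% and 66.1%. In all these parts the level was lowest in *Dnmt3a* KO cells and intermediate in *Dnmt3b* KO cells.

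**Figure D1:**
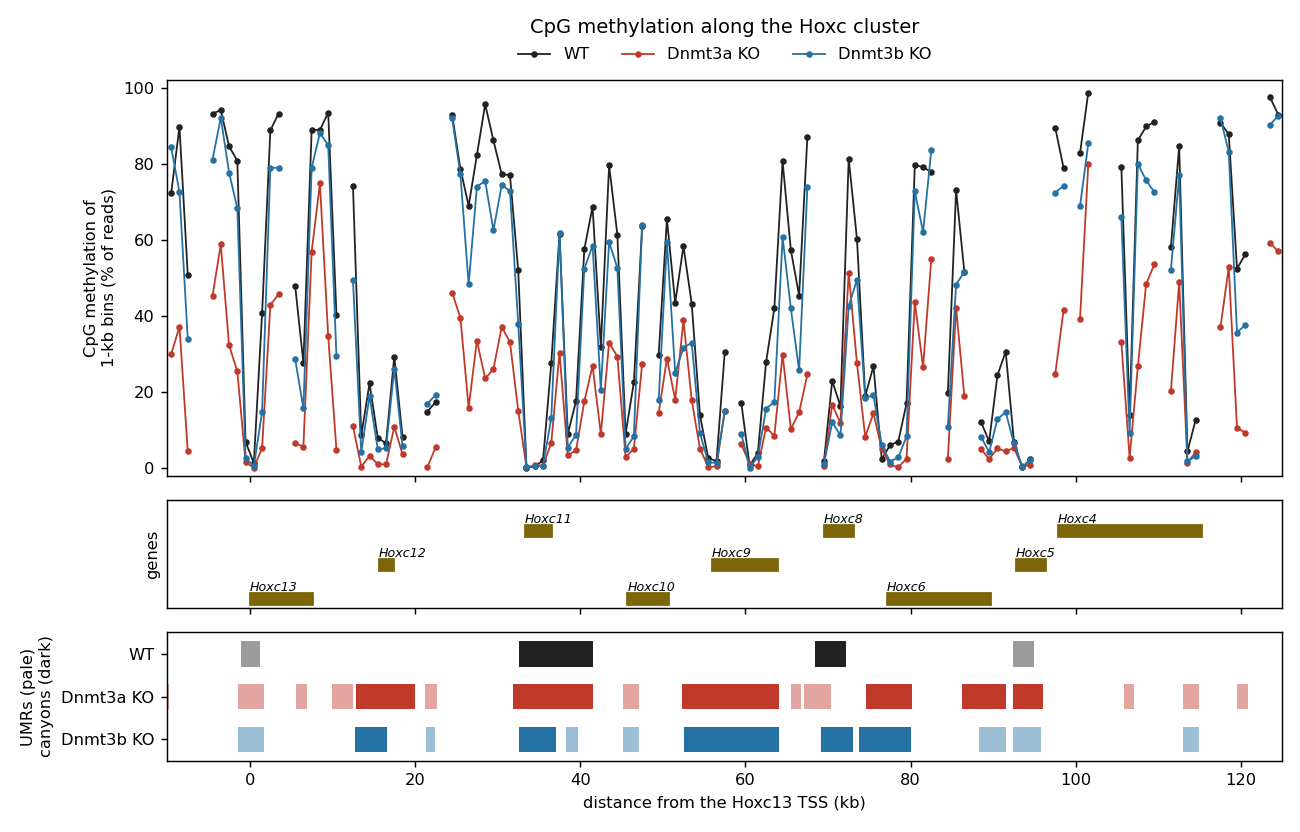
Percentage of methylated reads (y axis) in bins of 1 kb along the *Hoxc* cluster (x axis, distance in kb from the TSS of *Hoxc13*) in WT, *Dnmt3a* KO and *Dnmt3b* KO cells, with the gene bodies drawn as boxes and, in the lowest panel, UMRs in pale and canyons in dark shades for each genotype. Bins with under 5 CpGs break the lines. Most low stretches lie at the genes, and between them the *Dnmt3a* KO line runs far under the WT line, while the *Dnmt3b* KO line stays nearer to WT.

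Sequences are shown for 3 windows of 300 bp between genes. The first had the most CpGs that were hypomethylated in *Dnmt3a* KO cells, the second the most that were hypomethylated in *Dnmt3b* KO cells, and the third the most CpGs under 10% in WT within 2 kb upstream of a *Hoxc* TSS. A CpG was called hypomethylated where the 95% credible interval of its difference from WT lay wholly beyond 20 points, which held for 25.6% of all CpGs tested in *Dnmt3a* KO cells and for 2.14% in *Dnmt3b* KO cells, and among CpGs of 80% or more in WT for 29.7% and 2.22%. All are given 5′ to 3′ on the plus strand of mm9, in lower case, with the CpGs that chose the window in capitals.
Window 1, chr15:102780246-102780545: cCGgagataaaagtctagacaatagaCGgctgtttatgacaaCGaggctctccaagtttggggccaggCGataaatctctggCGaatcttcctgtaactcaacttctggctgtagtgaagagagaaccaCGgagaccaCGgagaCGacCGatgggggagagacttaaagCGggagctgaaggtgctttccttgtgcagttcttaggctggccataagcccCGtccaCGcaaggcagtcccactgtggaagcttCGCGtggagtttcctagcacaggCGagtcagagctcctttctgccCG
Window 2, chr15:102743708-102744007: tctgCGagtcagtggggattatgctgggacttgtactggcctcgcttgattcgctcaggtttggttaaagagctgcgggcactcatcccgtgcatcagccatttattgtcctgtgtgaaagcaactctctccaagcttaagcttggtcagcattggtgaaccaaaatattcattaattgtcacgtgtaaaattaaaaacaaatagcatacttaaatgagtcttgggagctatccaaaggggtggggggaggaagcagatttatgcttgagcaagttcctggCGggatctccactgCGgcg
Window 3, chr15:102765366-102765665: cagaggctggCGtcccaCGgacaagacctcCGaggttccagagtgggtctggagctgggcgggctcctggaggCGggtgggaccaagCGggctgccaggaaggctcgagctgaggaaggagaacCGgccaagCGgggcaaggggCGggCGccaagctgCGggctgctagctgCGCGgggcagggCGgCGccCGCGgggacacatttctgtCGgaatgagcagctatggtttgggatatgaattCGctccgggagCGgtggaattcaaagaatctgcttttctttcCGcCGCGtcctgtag
Window 1 lies between *Hoxc12* and *Hoxc11*, with its centre 4463 bp upstream of the *Hoxc11* TSS, and all of its 16 CpGs were hypomethylated in *Dnmt3a* KO cells. Window 2 lies before *Hoxc13*, 7677 bp upstream of its TSS, and 3 of its 9 CpGs were hypomethylated in *Dnmt3b* KO cells. Window 3 lies 1673 bp upstream of the *Hoxc12* TSS, and 22 of its 25 CpGs were under 10% in WT. Because the calls chose the windows, their levels are a description. Window 1 had 95.8% methylated reads in WT (93.1 to 97.5), 13.8% in *Dnmt3a* KO cells (10.5 to 18.0) and 71.3% in *Dnmt3b* KO cells (66.4 to 75.7). Its single CpGs ranged between 83.3% and 100% in WT, between 0% and 39.4% in *Dnmt3a* KO cells and between 21.4% and 100% in *Dnmt3b* KO cells. Window 2 had 42.0% in WT, 0.552% in *Dnmt3a* KO cells and 22.8% in *Dnmt3b* KO cells, so that it was also lowest without *Dnmt3a*. Window 3 had 1.71% in WT, 0% in *Dnmt3a* KO cells (0 to 0.860) and 2.75% in *Dnmt3b* KO cells. The interval of its difference between *Dnmt3b* KO and WT included 0 (-1.23 to 3.15 points).

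At the TSSs of 8 of the 9 genes, methylation was 20.9% or less in WT, and it was lower still in *Dnmt3a* KO cells. The interval of the difference from WT lay below 0 at 9 of 9 TSSs in *Dnmt3a* KO, where 95.5% of all genes tested did, and at 5 of 9 in *Dnmt3b* KO cells (*Hoxc13*, *Hoxc12*, *Hoxc10*, *Hoxc6* and *Hoxc4*), where 74.1% of all genes did. Within 500 bp of the TSS the interval came to include 0 at *Hoxc11* and *Hoxc5* in *Dnmt3a* KO cells and at *Hoxc13* and *Hoxc6* in *Dnmt3b* KO cells. The median over the 9 genes was 3.95% in WT, 1.63% in *Dnmt3a* KO cells and 2.82% in *Dnmt3b* KO cells. Over 11399 genes with at least 20 CpGs around the TSS, the medians were 14.1%, 3.47% and 8.76%. A level near 0 in WT bounds how far the level can fall.

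The posterior genes come first on the chromosome. *Hoxc13* (ENSMUSG00000001655.6, chr15:102751534-102759245), known for its part in hair and nail formation, had 3.43% methylated reads around its TSS in WT (2.61 to 4.5), 0.694% in *Dnmt3a* KO cells (0.388 to 1.24) and 1.09% in *Dnmt3b* KO cells (0.720 to 1.64). *Hoxc12* (ENSMUSG00000050328.2, chr15:102767188-102769040) had 8.16% in WT, 0.904% in *Dnmt3a* KO cells and 5.29% in *Dnmt3b* KO cells. The KO of *Dnmt3a* thus left less methylation than that of *Dnmt3b* at *Hoxc12*, with a difference of -4.38 points between the KOs (-5.61 to -3.24), whereas at *Hoxc13* the interval of that difference included 0 (-1.03 to 0.262). Within 500 bp of the *Hoxc12* TSS the KOs lay closer together, at -2.97 points from WT in *Dnmt3a* KO cells and -2.17 points in *Dnmt3b* KO cells. At *Hoxc13* these differences were -1.01 and -0.231 points.

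*Hoxc11* (ENSMUSG00000001656.3, chr15:102784858-102788139), which acts in the hindlimb and the lower spine, was the exception. Its TSS had 3.65% methylated reads in WT (2.91 to 4.58), 2.43% in *Dnmt3a* KO cells (1.75 to 3.38) and 6.02% in *Dnmt3b* KO cells (4.96 to 7.30). The level in *Dnmt3b* KO cells was thus above WT, by 2.37 points (0.966 to 3.84), at 1 of 9 *Hoxc* TSSs, where 1.19% of all genes had an interval above 0. The rise did not stand within 500 bp of the TSS, where 0.859% of reads were methylated in WT, 0.203% in *Dnmt3a* KO cells and 0.483% in *Dnmt3b* KO cells. It also changed sign when the ratios of the CpGs were averaged without weighting by reads (-1.10 points).

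*Hoxc10* (ENSMUSG00000022484.7, chr15:102797227-102802324), which also acts in the hindlimb and lumbar spinal cord, had the most methylated TSS but one. It had 20.9% methylated reads in WT (18.8 to 23.1), 8.11% in *Dnmt3a* KO cells (6.91 to 9.50) and 10.5% in *Dnmt3b* KO cells (9.15 to 12), and within 500 bp the differences from WT were smaller, at -5.86 points in *Dnmt3a* KO cells and -4.25 points in *Dnmt3b* KO cells. *Hoxc9* (ENSMUSG00000036139.6, chr15:102807463-102815530), which sets thoracic motor neuron identity, had 2.14%, 0.527% and 1.43%. *Hoxc8* (ENSMUSG00000001657.6, chr15:102821053-102824698), which patterns the thoracic skeleton, had 2.96%, 1.36% and 2.82%. For *Hoxc9* and *Hoxc8* the interval of the difference between *Dnmt3b* KO and WT included 0 (-1.54 to 0.15 and -1.36 to 1.13 points).

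Among the anterior genes, *Hoxc6* (ENSMUSG00000001661.4, chr15:102828688-102841199), expressed in the forelimb-level spinal cord, had 5.57% in WT, 1.63% in *Dnmt3a* KO cells and 2.19% in *Dnmt3b* KO cells. *Hoxc5* (ENSMUSG00000022485.2, chr15:102844246-102847860) had 3.95%, 2.40% and 2.82%, and its difference in *Dnmt3b* KO cells had an interval that included 0 (-2.47 to 0.166). Over CpGs with at least 10 reads its differences from WT were only -0.136 points in *Dnmt3a* KO cells and 0.340 points in *Dnmt3b* KO cells. *Hoxc4* (ENSMUSG00000075394.3, chr15:102849367-102866836), the most anterior member, stood apart from the other 8. Its longest isoform starts in methylated sequence with 82.7% methylated reads in WT (78.6 to 86.3), 36.0% in *Dnmt3a* KO cells (30.7 to 41.7) and 73.7% in *Dnmt3b* KO cells (68.5 to 78.3), over 19 CpGs. In *Dnmt3a* KO cells 8 of 19 CpGs tested were hypomethylated, and in *Dnmt3b* KO cells 0 of 22, against 25.6% and 2.14% of all CpGs. Among CpGs of 80% or more in WT the shares were 29.7% and 2.22% over the genome, and 52.0% and 5.26% in the cluster. A stretch of 4 consecutive hypomethylated CpGs across this TSS (chr15:102849263-102849416) had 91.7% in WT, 0% in *Dnmt3a* KO cells (0 to 10.2) and 93.1% in *Dnmt3b* KO cells. The calls chose this stretch, so its levels are a description. Its depth was low, from 7.25 to 12 reads per CpG in the 3 genotypes.

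The level at the start of *Hoxc4* depends on the isoform. The other annotated coding isoform starts inside the gene at position 102864826, where 9.08% of reads were methylated in WT, 6.21% in *Dnmt3a* KO cells and 5.23% in *Dnmt3b* KO cells. There the level in both KOs lay below WT, and the difference between the KOs had an interval that included 0 (-0.884 to 2.89). For *Hoxc6*, isoforms starting at 102830960 and 102839910 had 24.7% and 14.9% in WT, against 5.57% at the start of the longest isoform. They had 4.82% and 6.46% in *Dnmt3a* KO cells, and 14.6% and 10.7% in *Dnmt3b* KO cells.

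**Figure D2:**
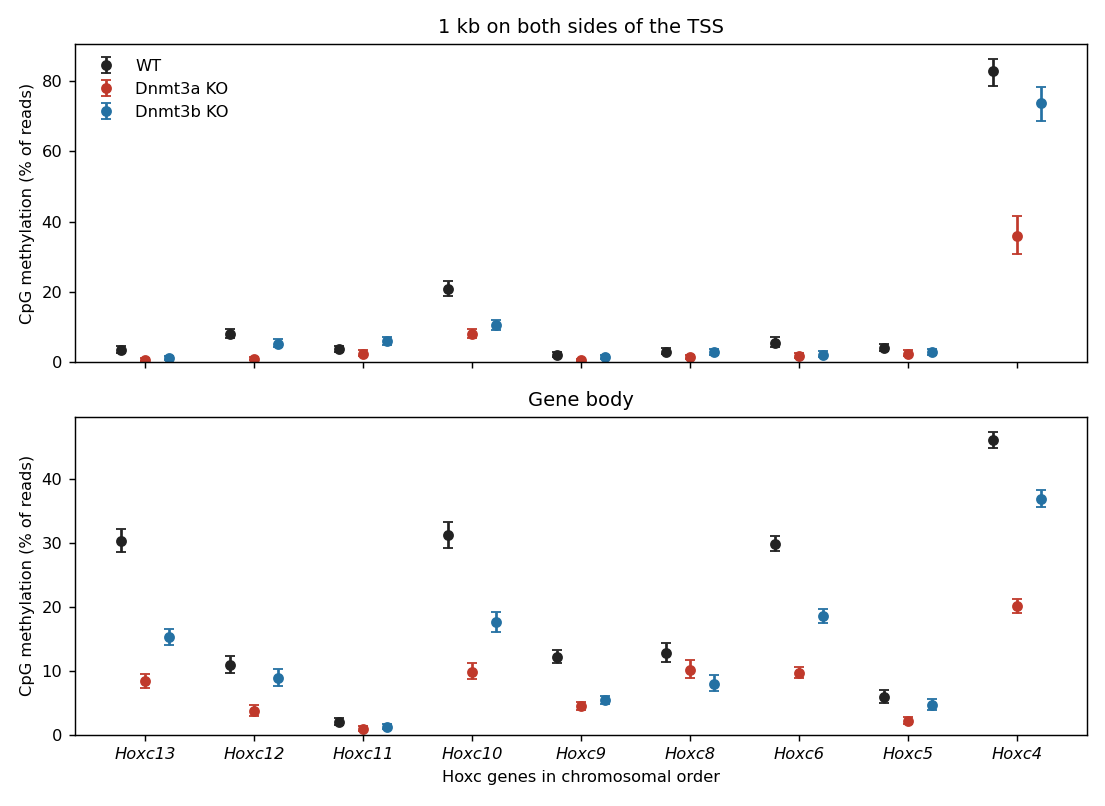
Percentage of methylated reads (y axis) within 1 kb of the TSS and over the gene body of each of the 9 *Hoxc* genes (x axis, in chromosomal order) in WT, *Dnmt3a* KO and *Dnmt3b* KO cells, with 95% Wilson intervals as bars. *Hoxc4* is the highest at the TSS with 82.7% in WT, and at the gene body of *Hoxc8* the *Dnmt3b* KO level of 7.97% lies under the *Dnmt3a* KO level of 10.2%.

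Upstream of the TSS, from 500 to 3000 bp before it, methylation was higher in WT and the KOs were further apart at 8 of the 9 genes, the exception being *Hoxc4*. At *Hoxc13* this distal promoter had 68.0% in WT, 22.4% in *Dnmt3a* KO cells and 56.8% in *Dnmt3b* KO cells. At *Hoxc12* it had 30.1%, 2.51% and 20.4%, at *Hoxc11* 72.1%, 29.6% and 64.4%, and at *Hoxc10* 58.8%, 22.3% and 40.5%. At *Hoxc8* the levels were 57.5%, 22% and 45.3%. *Hoxc9*, *Hoxc6* and *Hoxc5* started lower, with 16.2%, 23.5% and 23.3% in WT. They had 6.0%, 11.7% and 4.70% in *Dnmt3a* KO cells and 11.2%, 18.2% and 11.3% in *Dnmt3b* KO cells. *Hoxc4* had 68.0%, 19.2% and 45.8%, over 10 CpGs. At *Hoxc4* this lay below the level around the TSS in WT, and the KOs were closer together, with a difference of -26.6 points against -37.7 points at the TSS. Levels of the distal promoter were not computed over all genes. The study reports lower methylation at distal promoters genome-wide in *Dnmt3a* KO cells, so such a fall is not particular to *Hoxc*.

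The bodies of the genes were lower in both KOs, with an interval below 0 for 9 of 9 genes in *Dnmt3a* KO cells (99.2% of all genes tested) and for 8 of 9 in *Dnmt3b* KO cells (91.8% of all genes), the exception being *Hoxc5* with -1.25 points (-2.54 to 0.0284). The median over the 9 genes was 12.8% in WT, 8.37% in *Dnmt3a* KO cells and 8.84% in *Dnmt3b* KO cells. Over 12746 genes of at least 20 CpGs the medians were 82.4%, 47.2% and 74.1%. *Hoxc11* had the lowest body, with 2.01% in WT, 0.856% in *Dnmt3a* KO cells and 1.20% in *Dnmt3b* KO cells, and *Hoxc4* the highest, with 46.0%, 20.1% and 36.9%. Within *Hoxc4* the methylation lay in the introns, with 57.5% in WT, 25.4% in *Dnmt3a* KO cells and 49.7% in *Dnmt3b* KO cells, against 9.23%, 2.41% and 4.39% in the exons. The isoform of *Hoxc4* that starts at 102864826 had a body level of 11.3%, 3.61% and 4.39%, and by it *Hoxc10* would be the highest. *Hoxc13* fell from 30.2% in WT to 8.37% in *Dnmt3a* KO cells and to 15.2% in *Dnmt3b* KO cells. *Hoxc10* had 31.2%, 9.86% and 17.5%, and *Hoxc6* 29.9%, 9.70% and 18.5%. With unweighted CpG ratios the fall in *Dnmt3b* KO cells was -6.84 points at *Hoxc13* and -5.96 points at *Hoxc6*, against -15.0 and -11.4 points as weighted by reads. In *Dnmt3a* KO cells it was -14.6 and -15.7 points, against -21.9 and -20.2 points. The *Hoxc6* isoform nearest its start codon gave -9.26 points in *Dnmt3a* KO cells and -5.73 points in *Dnmt3b* KO cells.

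*Hoxc8* was the gene with the lower body level in *Dnmt3b* KO cells. It had 12.8% in WT (11.4 to 14.4), 10.2% in *Dnmt3a* KO cells (8.85 to 11.7) and 7.97% in *Dnmt3b* KO cells (6.82 to 9.30). The *Dnmt3a* KO level was 2.22 points above the *Dnmt3b* KO level (0.329 to 4.12), and 4 of 88 CpGs tested in *Dnmt3a* KO cells and 4 of 86 in *Dnmt3b* KO cells were hypomethylated, against 25.6% and 2.14% of all CpGs. Both of these shares cover CpGs of every WT level. No CpG under 20% in WT can be called, so the low WT level of this body in itself limits the count. The order of the KOs rests on the weighting by reads. With unweighted CpG ratios the difference from WT was -7.20 points in *Dnmt3a* KO cells and -6.24 points in *Dnmt3b* KO cells, so that the order of the KOs turned. Of the 9 gene bodies 8 were lower in *Dnmt3a* KO cells than in *Dnmt3b* KO cells, where 99.1% of all gene bodies were, both by level alone. The bins of 1 kb inside *Hoxc8* had the same order, with 22.9%, 16.7% and 12.1% in the bin from 102821534, with 16.3%, 11.8% and 8.61% in the next, and with 81.3%, 51.4% and 42.6% in the one after it. In each of these 3 bins the interval of the difference between the KOs included 0. *Hoxc9* had 12.2%, 4.52% and 5.39%, with a difference between the KOs of -0.865 points (-1.77 to 0.0450). For the body of *Hoxc11* the interval of that difference also included 0 (-0.933 to 0.230 points). *Hoxc12* had 10.9%, 3.70% and 8.84%, and with unweighted CpG ratios its difference in *Dnmt3b* KO cells changed sign (0.49 points). *Hoxc5* had 5.88%, 2.15% and 4.63%.

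CpG islands were found in the reference from sequence alone, and 7 lay in the cluster, at *Hoxc13*, *Hoxc12*, *Hoxc11*, *Hoxc10*, *Hoxc9*, *Hoxc8* and *Hoxc5*. Their 537 CpGs had 2.15% methylated reads in WT, 0.85% in *Dnmt3a* KO cells and 1.32% in *Dnmt3b* KO cells. The island of *Hoxc10* was the most methylated, with 9.61%, 3.15% and 4.84%. The island of *Hoxc11* had 0.169%, 0.261% and 0.230%, and that of *Hoxc5* 0.345%, 0.409% and 0.408%, with intervals of all differences that included 0. In the 2 kb next to the islands the levels were 29.2%, 10.1% and 20.1%, and farther away they were 44.2%, 16.3% and 34.1%.

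Between the genes the differences were larger. The longest interval, 15817 bp from *Hoxc12* to *Hoxc11*, had 57.6% methylated reads in WT (56.3 to 58.9), 20.1% in *Dnmt3a* KO cells (19 to 21.1) and 48.7% in *Dnmt3b* KO cells (47.4 to 50.1). From *Hoxc13* to *Hoxc12* the levels were 43.5%, 11.8% and 35.8%. From *Hoxc11* to *Hoxc10* they were 47.9%, 16.4% and 32.8%, and from *Hoxc9* to *Hoxc8* 47.5%, 13.8% and 32.6%. In these last intervals the *Dnmt3b* KO level dropped by 15.1 and by 14.9 points, whereas it dropped by 8.87 points from *Hoxc12* to *Hoxc11*.

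Most of the other intervals were less methylated. From *Hoxc10* to *Hoxc9* the levels were 19.9%, 8.48% and 14.3%, from *Hoxc8* to *Hoxc6* 22.6%, 10.7% and 16.7%, and from *Hoxc6* to *Hoxc5* 19.9%, 5.21% and 10.6%. The short interval from *Hoxc5* to *Hoxc4*, with 9 CpGs, was the most methylated at 92.6% in WT, 32.6% in *Dnmt3a* KO cells and 84.4% in *Dnmt3b* KO cells, and its difference in *Dnmt3b* KO cells had an interval that included 0 (-18.5 to 0.628).

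In bins of 1 kb, 63 of 135 bins touched no *Hoxc* gene, and 53 of these had at least 5 CpGs. Of the 112 bins with at least 5 CpGs, 64 (57.1%) were more than 20 points lower in *Dnmt3a* KO cells than in WT, against 86.8% of all windows of the genome. In *Dnmt3b* KO cells 10 (8.93%) were, against 5.68% of all windows. In WT 36 of the bins were under 20%, where a fall of more than 20 points is not possible. Of the 28 bins of 80% or more in WT, 26 (92.9%) were lower by more than 20 points in *Dnmt3a* KO cells (89.1% of all such windows) and 3 (10.7%) in *Dnmt3b* KO cells (4.52% of all such windows). Of the 48 bins from 20% to under 80% in WT, 38 (79.2%) were in *Dnmt3a* KO cells (79.4% of all such windows) and 7 (14.6%) in *Dnmt3b* KO cells (16.4% of all such windows).

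The medians of the bins of 80% or more in WT lay further from WT than those of all windows, which was not tested. In the 28 bins of 80% or more in WT the median level was 89.2% in WT, 44.1% in *Dnmt3a* KO cells and 78.3% in *Dnmt3b* KO cells, and the median difference from WT was -47.1 points in *Dnmt3a* KO cells and -11.1 points in *Dnmt3b* KO cells. All such windows of the genome had medians of 92.4%, 58.7% and 86.4%, with median differences of -33.3 and -5.96 points. Among bins from 20% to under 80% the median differences were -34.4 and -11.8 points, against -31.6 and -8.33 points, though the WT median of the *Hoxc* bins was lower (54.3% against 71.5%). Windows of this class with 20 or more CpGs had a WT median of 54.0%, close to the *Hoxc* bins, with median differences of -31.2 and -14.6 points, and 27.8% of them were lower by more than 20 points in *Dnmt3b* KO cells. Against these windows the *Hoxc* bins of this class were thus less far from WT in *Dnmt3b* KO cells, which was not tested. The *Hoxc* bins were not limited to 20 or more CpGs, with a median of 16.5 CpGs against 26. The *Dnmt3a* KO levels of the 28 bins ranged from 23.6% to 80%.

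**Figure D3:**
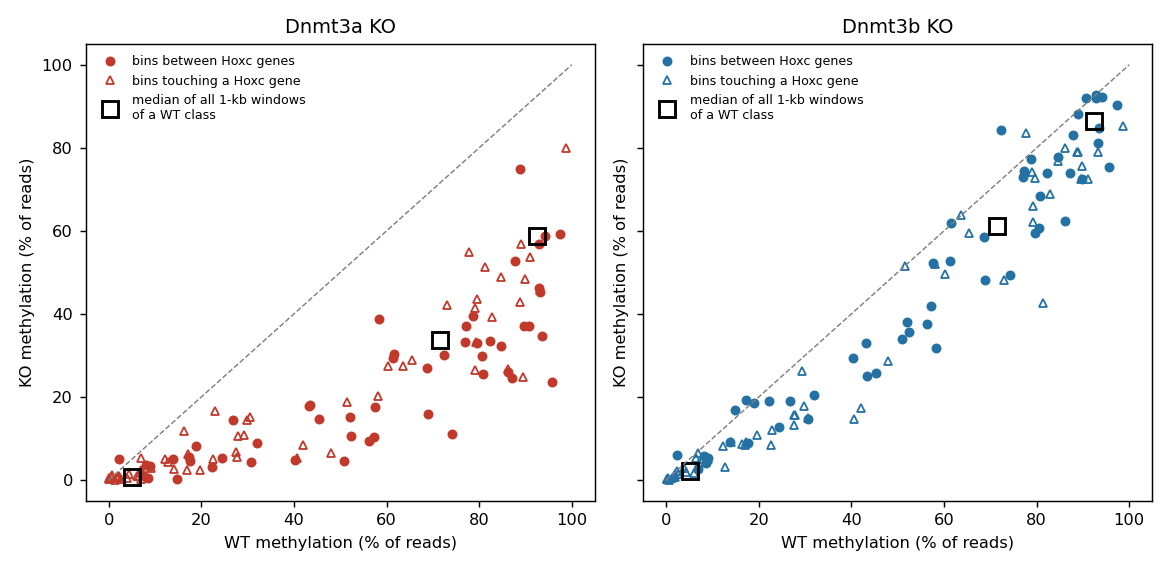
Percentage of methylated reads in *Dnmt3a* KO cells and in *Dnmt3b* KO cells (y axis) against that in WT (x axis) for the bins of 1 kb of the *Hoxc* cluster with at least 5 CpGs, where the dashed diagonal marks equal levels, circles are bins between genes, triangles are bins that touch a gene and squares are the medians of all windows of each WT class. Bins of 80% or more in WT lie between 23.6% and 80% in *Dnmt3a* KO cells and closer to the diagonal in *Dnmt3b* KO cells.

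Of the bins between genes, the one with the largest fall in *Dnmt3a* KO cells starts at 102779534, between *Hoxc12* and *Hoxc11*, and overlaps window 1 above. It had 95.6% in WT (93.7 to 97), 23.6% in *Dnmt3a* KO cells (20.2 to 27.3) and 75.5% in *Dnmt3b* KO cells (71.9 to 78.8) over 28 CpGs, 22 of them hypomethylated in *Dnmt3a* KO cells. Over the genome 25.6% of all CpGs were, and 29.7% of those of 80% or more in WT. The bin after it had 86.1%, 26% and 62.5%. The bin at 102763534, upstream of *Hoxc12*, had 74.1%, 11% and 49.4%, and was among the 5 with the largest falls in both KOs. The other bins among the 5 in *Dnmt3a* KO were those at 102818534, before *Hoxc8*, with 87.2%, 24.6% and 73.8%, and at 102760534, after *Hoxc13*, with 93.5%, 34.7% and 84.8%.

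In *Dnmt3b* KO cells the largest fall of a bin between genes was that of the bin at 102803534, between *Hoxc10* and *Hoxc9*, with 58.3% in WT (48.9 to 67.2), 38.8% in *Dnmt3a* KO cells (29.2 to 49.5) and 31.7% in *Dnmt3b* KO cells (23.4 to 41.3) over 7 CpGs. It was also 1 of 9 bins that were not lower in *Dnmt3a* KO cells than in *Dnmt3b* KO cells. Its difference between the KOs had an interval that included 0 (-6.48 to 20.6 points). The other 103 of the 112 bins were lower (92.0%), against 98.9% of all windows, both by level alone. The interval of the difference between the KOs lay below 0 in 86 bins and above 0 in 1 bin, at 102811534 in *Hoxc9* (0.486 to 1.68 points). The share of all windows by this rule was not counted, so these counts have no background. The other 8 of the 9 bins lay in *Hoxc8* (3 bins), *Hoxc9* (2 bins), *Hoxc11*, *Hoxc5* and *Hoxc4*. Those in *Hoxc11* and *Hoxc5* and the one at 102811534 were near 0 in all genotypes, which leaves little room for a difference. The bins at 102777534 and 102794534, with 68.9% and 79.6% in WT, completed the 5 largest falls of bins between genes in *Dnmt3b* KO cells, with 48.3% and 59.4% there. The first bin, at 102741534, had an interval above 0 in *Dnmt3b* KO cells, with 72.4% in WT and 84.3% in *Dnmt3b* KO cells (a difference of 11.9 points, 0.358 to 24.1). It holds 5 CpGs, and 1.74% of all windows had such an interval. No bin had one in *Dnmt3a* KO cells, where 0.0234% of all windows did.

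The bin at 102803534 holds *Mir196a-2*, a microRNA gene whose product is known to act on *Hox* transcripts. Its mature form from the 5′ arm, taken from RefSeq (GRCm38.p6) and found unchanged in the mm9 gene at chr15:102803796-102803817, is shown to identify the gene, with the seed, bases 2 to 8, in capitals.
mmu-miR-196a-5p: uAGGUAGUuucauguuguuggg
Within 1 kb of its start, 40 CpGs had 43.9% methylated reads in WT (40.4 to 47.5), 20.7% in *Dnmt3a* KO cells (18.0 to 23.7) and 21.8% in *Dnmt3b* KO cells (19 to 24.8). The level fell by 23.2 points in *Dnmt3a* KO cells and by 22.1 points in *Dnmt3b* KO cells, and the difference between the KOs was -1.05 points (-5.12 to 3.02). No CpG of *Mir196a-2* itself had at least 3 reads in every genotype, so these levels and that of the bin are of its surroundings. *Mir615*, the microRNA gene inside *Hoxc5*, lies in its unmethylated sequence, with 1.18%, 0.454% and 0.98% within 1 kb of its start. The noncoding transcript *Gm16258*, on the minus strand between *Hoxc12* and *Hoxc11* (chr15:102774493-102778851), was the most methylated of the other annotated genes. Its body had 82.4% in WT, 35.7% in *Dnmt3a* KO cells and 72.2% in *Dnmt3b* KO cells, and 32 of 52 CpGs tested were hypomethylated in *Dnmt3a* KO cells and 2 of 52 in *Dnmt3b* KO cells, against 25.6% and 2.14% of all CpGs. For CpGs of 80% or more in WT the shares were 29.7% and 2.22% over the genome, and 52.0% and 5.26% in the cluster. Its own TSS had 77.2%, 22.8% and 57.0%. The transcript *Gm20398*, which runs along the *Hoxc* genes from *Hoxc10* to *Hoxc5*, had 19.2%, 4.04% and 7.38% at its TSS, and *Gm17649*, a gene model on the minus strand before *Hoxc13*, had 6.12%, 1.31% and 2.17%.

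**Figure D4:**
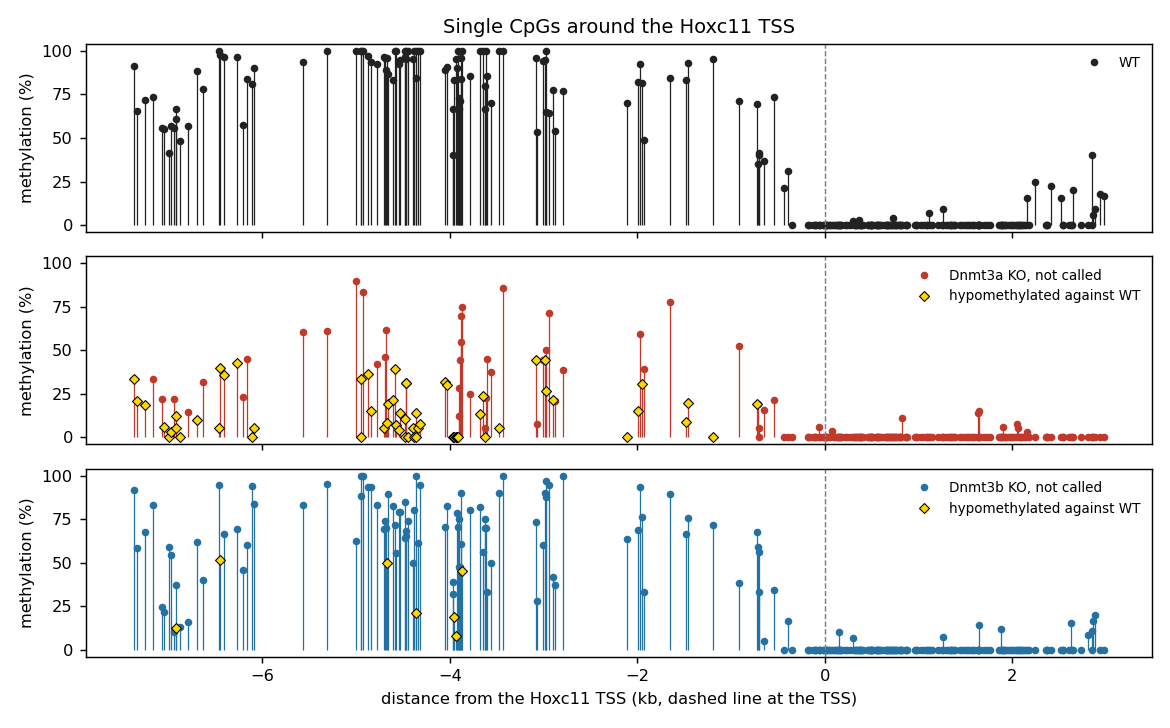
Methylation ratio of single CpGs in percent (y axis) against the distance from the *Hoxc11* TSS (x axis) in WT, *Dnmt3a* KO and *Dnmt3b* KO cells, 1 panel each, with CpGs called hypomethylated drawn as diamonds. The CpGs of window 1, at about 4463 bp upstream, lie at 83.3% or more in WT and at 39.4% or less in *Dnmt3a* KO cells, and most CpGs within 500 bp of the TSS are near 0 in all genotypes.

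Single CpGs were then compared. In *Dnmt3a* KO cells 384 of 2635 CpGs (14.6%) were hypomethylated, against 25.6% of all CpGs tested, and in *Dnmt3b* KO cells 59 of 2636 (2.24%), against 2.14% of all CpGs. Most CpGs of the cluster were little methylated in WT, where 1429 of 2607 were under 20%, and no CpG of this class can fall by more than 20 points. Of the CpGs of 80% or more in WT, 236 of 454 (52.0%) were hypomethylated in *Dnmt3a* KO, against 29.7% of all such CpGs, and 24 of 456 (5.26%) in *Dnmt3b* KO cells, against 2.22%. Of the CpGs from 20% to under 80% in WT, 148 of 737 (20.1%) were in *Dnmt3a* KO, against 19.1%, and 35 of 738 (4.74%) in *Dnmt3b* KO cells, against 3.04%. The WT reads that set the class of a CpG or bin also enter its difference from WT. Counting error in WT can therefore add to the falls of the highest class. WT depth was lower in the cluster (20.4 against 36.2), and the size of this effect was not tested. Hypermethylated CpGs numbered 0 in *Dnmt3a* KO, where 0.00703% of all CpGs were called, and 6 in *Dnmt3b* KO cells, where 0.069% were. Smaller differences of single CpGs are not called by this rule. The counts depend on the rule, with 667 in *Dnmt3a* KO by Fisher's exact test on the reads, which called 48.6% of all CpGs, and 21 in *Dnmt3b* KO by a 99% interval, which called 1.0% of all CpGs.

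The longest stretch of consecutive hypomethylated CpGs, 21 in *Dnmt3a* KO cells, ran over 696 bp from 102780193 to 102780888 and contains window 1. It had 94.0% in WT, 15.2% in *Dnmt3a* KO cells and 69.5% in *Dnmt3b* KO cells, levels that are a description because the calls chose the stretch.

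**Figure D5:**
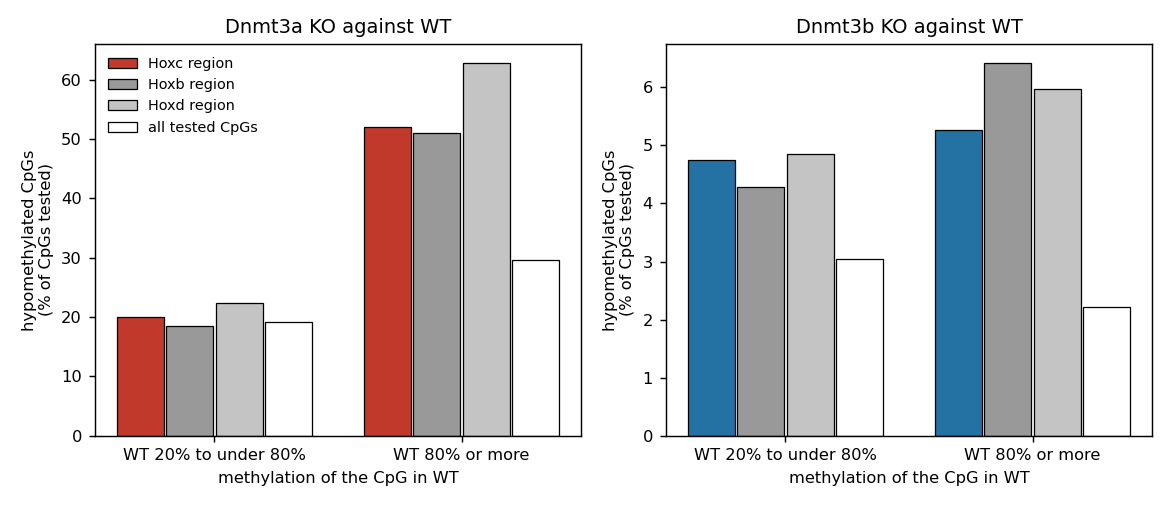
Percentage of CpGs called hypomethylated (y axis) in *Dnmt3a* KO cells and *Dnmt3b* KO cells by class of the WT ratio (x axis), for the *Hoxc* cluster (coloured bars), the *Hoxb* and *Hoxd* clusters (grey bars) and all CpGs tested (white bars). The y axes of the panels differ in scale. In the class of 80% or more the *Hoxc* share is 52.0% against 29.7% in *Dnmt3a* KO cells and 5.26% against 2.22% in *Dnmt3b* KO cells.

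UMRs and canyons of the cluster were called in each genotype as runs of low methylation with a mean under 10%, of 1 kb to under 3.5 kb for UMRs and 3.5 kb or more for canyons. WT had 2 canyons and 2 UMRs, which held 17505 bp or 12.9% of the cluster. The UMRs lay at *Hoxc13* (2358 bp) and *Hoxc5* (2507 bp), and the canyons at *Hoxc11* (8885 bp, chr15:102784145-102793029) and *Hoxc8* (3755 bp, chr15:102819929-102823683). Both canyons had mean ratios close to the limit, 9.84% and 9.89%. *Dnmt3a* KO cells had 6 canyons and 11 UMRs with 62759 bp (46.2%), and *Dnmt3b* KO cells had 5 canyons and 7 UMRs with 45894 bp (33.8%). No such count was made here over the genome. By its own calls the study reports more canyons and UMRs in *Dnmt3a* KO cells than in WT genome-wide, so such a gain is not particular to *Hoxc*.

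The longest canyon of both KOs spanned *Hoxc9*, with 11675 bp in *Dnmt3a* KO cells and 11448 bp in *Dnmt3b* KO cells, and had no canyon or UMR in WT under this limit. At *Hoxc12* a canyon of 7142 bp was called in *Dnmt3a* KO cells and one of 3818 bp in *Dnmt3b* KO cells. At *Hoxc6* canyons of 5609 bp and 6289 bp were called. The *Hoxc11* canyon had 9726 bp in *Dnmt3a* KO cells, and in *Dnmt3b* KO cells a canyon of 4413 bp and a UMR of 1460 bp lay in its place. At *Hoxc5* the UMR of WT had 3590 bp in *Dnmt3a* KO cells and so counted as a canyon, and 3292 bp in *Dnmt3b* KO cells. The UMR at *Hoxc13* had 3183 bp and 3107 bp. At *Hoxc8* a UMR of 3279 bp was called in *Dnmt3a* KO cells, but a canyon of 5058 bp with the model fitted on chromosome 15, and in *Dnmt3b* KO cells the canyon there had 3853 bp. These totals depend on the limit of 10%. Without it, runs of low methylation held 51390 bp in WT, 63868 bp in *Dnmt3a* KO cells and 51441 bp in *Dnmt3b* KO cells, so that the excess in *Dnmt3b* KO over WT was gone and that in *Dnmt3a* KO was smaller. The canyons then numbered 5 in WT, 6 in *Dnmt3a* KO cells and 5 in *Dnmt3b* KO cells. Runs with a mean under 10% over 5 CpGs gave 13741 bp in WT, 25335 bp in *Dnmt3a* KO cells and 16876 bp in *Dnmt3b* KO cells, with 0, 2 and 0 canyons.

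The *Hoxb* cluster on chromosome 11 and the *Hoxd* cluster on chromosome 2, measured in the same way, were close to *Hoxc* in level. The *Hoxb* region had 35.4% methylated reads in WT, 14.1% in *Dnmt3a* KO cells and 25.8% in *Dnmt3b* KO cells, and the *Hoxd* region 38.1%, 11.9% and 28.3%. Of CpGs of 80% or more in WT, 51.0% in *Hoxb* and 62.8% in *Hoxd* were hypomethylated in *Dnmt3a* KO cells, and 6.42% and 5.98% in *Dnmt3b* KO cells, beside 52.0% and 5.26% in *Hoxc*. At the TSSs *Hoxc* was lower, with a median of 3.95% in WT against 21.3% in *Hoxb* and 11.7% in *Hoxd*. A methylated start as at *Hoxc4* was not particular to *Hoxc*. In WT, *Dnmt3a* KO and *Dnmt3b* KO cells the *Hoxb4* TSS had 81.3%, 30.2% and 66.0%. The *Hoxb3* TSS had 79.2%, 41.7% and 76.7%, and the *Hoxd4* TSS 93.8%, 42.3% and 84.4%. The other TSSs of both clusters had 56.7% or less in WT. The interval in *Dnmt3b* KO cells lay below 0 at 6 of 9 *Hoxb* and 8 of 9 *Hoxd* TSSs and above 0 at none of them. Of all genes tested 74.1% had an interval below 0 and 1.19% above 0. UMRs and canyons held 19.3%, 44.1% and 30.1% of the *Hoxb* region in WT, *Dnmt3a* KO and *Dnmt3b* KO cells, and 15.0%, 53.8% and 22.7% of the *Hoxd* region. With 1 value per genotype none of these differences between clusters was tested.

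Of 11027 protein-coding genes outside the *Hox* clusters, the nearest to the median *Hoxc* gene over 6 values, the TSS and gene body levels in the 3 genotypes, included *Gm10300*, *Barx1*, *Irx2* and *Otx2*, at Euclidean distances of 1.64, 3.67, 3.92 and 3.92 points. *Barx1*, *Irx2* and *Otx2* encode homeodomain transcription factors. *Otx2*, which acts in the forebrain, had 5.95%, 1.32% and 2.54% at the TSS and 11.5%, 5.40% and 8.03% over the body in WT, *Dnmt3a* KO and *Dnmt3b* KO cells. *Irx2* had 2.64%, 0.935% and 1.49% at the TSS and 14.8%, 5.71% and 9.36% over the body.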

How the data were processed

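The 9 libraries, 3 per genotype, were sequenced by WGBS. Per the labels and the study's methods, the authors aligned paired-end reads to mm9 with BSMAP, removed the bases of the repair end, clonal reads and overlapping mate segments with BSeQC, and merged the 3 libraries of a genotype. The deposited tables hold read counts per CpG, all and methylated, without normalization, and the deposited ratio is a fraction from 0 to 1 made by the authors from these counts. Clonal reads were removed, but a read that covers several CpGs is counted at each of them. The intervals treat these counts as independent, so they cover counting error at most and may be narrower than it. Because the WT table stops on chromosome 4, comparisons cover 13 whole chromosomes and part of chromosome 4. The *Hoxa* cluster was not analysed here.

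Gene models were those of GENCODE on mm9, each by its longest coding isoform. Levels are methylated over all reads, summed over CpGs that 3 or more reads covered in all genotypes. Calls of CpGs compared Beta posteriors with a uniform prior, with depths over 200 scaled to 200. Bins of the region with under 5 CpGs were not ranked. UMRs and canyons came from a hidden Markov model of 2 states with beta-binomial emissions, fitted on chromosome 19 of each genotype, in place of the authors' MOABS module, with at least 5 CpGs in a run and the chain broken at gaps over 1000 bp. CpG islands were 500 bp or longer, with 55% or more GC and 0.65 or more of the CpGs that base composition predicts. Calls were tested on simulated data. Python 3.11.15, NumPy 2.4.6, SciPy 1.17.1, numba 0.67.0, pandas 2.3.3 and matplotlib 3.10.9 were used.

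The members and lists were chosen with earlier results of these data known. Named were all *Hoxc* genes, other annotated genes inside the region, the 5 bins between genes with the largest fall in each KO, bins with an interval above 0, the 5 nearest genes, 1 of which is not reported here, and the 3 windows printed. CpG islands, consecutive called CpGs, bins not lower in *Dnmt3a* KO cells, windows of 20 or more CpGs, and the alternatives on strands, *Hoxc4* and the 10% limit were added after seeing the data.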

Additional observations from a re-analysis of the deposited data

Results flagged for a closer look

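Levels above WT were seen in *Dnmt3b* KO cells where *Dnmt3a* KO cells were below WT, at the *Hoxc11* TSS (2.37 points above WT, against -1.22 points in *Dnmt3a* KO) and in the first bin of the region (11.9 points, against -42.4 points). The first of these turned to -0.38 points within 500 bp and to -1.10 points with unweighted ratios. Both stood out because the KOs moved in opposite directions from the same WT reads. The difference was not tested across replicates, since each genotype has 1 merged table. The first bin holds 5 CpGs, covered by 15.2 reads on average in WT and by 24.2 in *Dnmt3b* KO cells. With 1 value per genotype, no group was large enough to look for a sample far from the others.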

How the results depend on the processing

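No paired analysis was possible because the 3 libraries of a genotype were merged by the authors, which also means that no library could be left out. The cause of the shifts below was not tested, except where fewer CpGs, bp or genes enter by construction. The whole-region difference of *Dnmt3a* KO from WT was -22.4 points with at least 10 reads, -18.9 with unweighted CpG ratios, and -23.8 on the plus and -19.2 on the minus strand alone. That of *Dnmt3b* KO was -6.79 with unweighted ratios and -7.77 on the minus strand. At TSSs the difference of -4.95 points in *Dnmt3a* KO became -3.83 within 500 bp, -3.83 at the isoform nearest its start codon and -3.59 without *Hoxc4*. Over gene bodies, differences of -14.3 and -7.96 points in *Dnmt3a* KO cells and *Dnmt3b* KO became -12.7 and -5.44 with unweighted ratios, -8.69 and -5.86 with the isoform nearest its start codon, and -7.29 with at least 10 reads in *Dnmt3b* KO. In the bins that touch no gene, margins included, differences of -33.9 and -11.3 points became -29.5 and -9.24 with unweighted ratios, and -35.6 with at least 10 reads in *Dnmt3a* KO. Hypomethylated CpGs numbered 667 in *Dnmt3a* KO by Fisher's exact test on reads (48.6% of all CpGs) and 21 in *Dnmt3b* KO with a 99% interval (1.0% of all CpGs). Under-methylated length was 51390 bp in WT without the 10% limit, 100758 bp in *Dnmt3a* KO with the states of WT, and 25335 bp in *Dnmt3a* KO cells and 16876 bp in *Dnmt3b* KO by a running mean over 5 CpGs. It was longest in *Dnmt3a* KO under every setting run. Among 162 values of single genes, 31 moved beyond their interval, such as the *Hoxc10* TSS within 500 bp (-5.86 and -4.25 points), and 3 whose interval excluded 0 as reported changed sign, the latter all in *Dnmt3b* KO: the *Hoxc11* TSS to -1.10 points with unweighted ratios and to -0.38 within 500 bp, and the *Hoxc12* body to 0.49 points with unweighted ratios. The median depth of the cluster was 19 reads per CpG. Thinning to the shallowest genotype moved no count by over 1.5 times, but with mean depths of 19.5 to 20.4 it removed few reads and could hardly do so. The greater depth of the genome, against which shares are set, was not equalised.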
